A study of Saccharomyces cerevisiae with 8 samples.

Results

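The mitoribosome is the ribosome of the mitochondrial matrix, and in budding yeast it makes a handful of inner membrane proteins of the respiratory chain and ATP synthase, together with its own subunit Var1. Nearly all of its proteins are encoded in the nucleus, translated on cytosolic ribosomes and imported, so that ribosome protected fragments (RPFs) on their mRNAs report how many cytosolic ribosomes were making them. Many of these mRNAs are known targets of Puf3, an RNA binding protein that recognises a short motif after the stop codon and acts on the stability, location and translation of mRNAs for mitochondrial proteins.

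Nuclear protein-coding genes whose standard name is MRP, MRPL, MRPS or RSM followed by a number were taken, which gave 66 of 6600 protein-coding genes. Of these, 37 encode proteins of the large subunit and 27 proteins of the small subunit. The other 2 have no known place in the mitoribosome. These are MRP8, whose product was once thought to be a mitoribosomal protein and has no assigned function, and RSM22, which encodes a predicted methyltransferase that acts on the small subunit. By origin, 40 of the proteins have a homolog in the bacterial ribosome and 24 are specific to mitochondrial ribosomes. The genes lie on 14 chromosomes, with 8 of them on chromosome XI, and only MRPL44 has a second coding segment.

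RPF libraries of 4 evolved strains of Saccharomyces cerevisiae were compared, with 2 replicates of each, all grown in glutamine-limited chemostats with 800 µM glutamine. All 4 descend from the same S288C-derived ancestor with a GFP and KanMX reporter beside GAP1, the general amino acid permease gene, and each is a single clone with its own copy number variant (CNV) of GAP1 on chromosome XI. Trans (DGY1726), with a tandem duplication nested in a translocation, and ODIRA_A (DGY1735), with an inverted triplication, were isolated at about generation 150. The triplication is attributed to origin-dependent inverted-repeat amplification. Trans also has a second CNV, on chromosome V. ComQuad (DGY1741), with a complex CNV that holds 4 copies of GAP1, and ODIRA_B (DGY1743), with an inverted triplication of the same kind as ODIRA_A, were isolated at about generation 250. The study also reports new single-base changes or small insertions and deletions in the strains, none of them in amplified genes. The time of isolation, the CNVs and these mutations therefore cannot be told apart in a comparison across these 2 times. The ancestor and the RNA-seq were not analysed here, so a difference in mRNA and a difference in ribosomes per mRNA cannot be told apart, nor can a different number of cells and a different number of RPFs per cell.

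Each library held 3723082 to 11459498 RPFs on coding sequences (CDS), fewest in both ODIRA_B libraries, and counting error is largest there. All 66 genes passed the minimum of 10 RPFs in at least 2 libraries, and their counts ran from 72 to 4120 per library. Replicates differed most in Trans, where log2 ratios of the same gene had an SD of 0.37, and least in ComQuad (0.15), with ODIRA_B (0.18) and ODIRA_A (0.25) in between. GAP1 was highest in ComQuad, with 16144.6 and 16546 counts per 1000000 RPFs (CPM). It had 13517 and 13485 CPM in ODIRA_B, 8815 and 7798 CPM in ODIRA_A, and 8795 and 7960 CPM in Trans. ODIRA_A and ODIRA_B, both with a triplication, were thus far apart, and ODIRA_A lay near Trans.

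The Puf3 motif was searched on the coding strand of the reference genome (R64) in the 200 bases after the stop codon of each gene, as TGTANATA, where N is any base. It was found for 64 of the 66 genes (97.0%, 95% Wilson interval 89.6 to 99.2) and for 874 of 6572 nuclear protein-coding genes (13.3%, 12.5 to 14.1). The 2 genes without it were MRP8 and RSM22, so that all 37 large subunit and all 27 small subunit genes had the motif. The naming rule used no sequence, and the set of all genes includes dubious reading frames. The stretches below show the first motif after the stop codon, in capitals, for the 2 genes inside a CNV, for 4 others that differed among the strains and for 2 that varied least.

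MRPL20, chrXI:599050-599077, minus strand: ataacaatcgTGTAAATActactctata
MRPL13, chrXI:450359-450386, minus strand: tttaatatccTGTACATAtatatactct
MRPL28, chrIV:1386538-1386565, plus strand: tgtctcctgcTGTAAATAactgatgatc
RSM26, chrX:619112-619139, plus strand: tcttatatacTGTAAATAgttttatttt
MRPL6, chrVIII:392536-392563, minus strand: gggaatacctTGTAAATAtcctatgaaa
MRPL38, chrXI:131136-131163, plus strand: attaaccaccTGTATATAttgcttaaat
MRP10, chrIV:372581-372608, plus strand: gtcatggcctTGTATATAcaaattaaat
MRP20, chrIV:1278500-1278527, plus strand: ccctcacactTGTATATAcggagcaaac

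The first motif began 8 to 139 bases after the stop codon, with a median of 51 bases, against a median of 61 bases in the 810 other genes that have one. The variable base was A in 32 of the 64 genes, T in 19, C in 12 and G in 1. Among the 810 other genes it was T most often, in 411, and A in 215. A C lay 2 bases before the motif, a position that Puf3 is known to read, in 45 of 64 genes (70.3%) and in 25.3% of the other genes with the motif. More than 1 motif was found for 13 of the 64 genes, and RSM19 had 3. On the opposite strand of the same window the motif occurred for 13 of the 66 genes and for 783 of the 6506 other nuclear genes. A match is a description of the sequence and does not show binding.

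Other genes of mitochondrial translation also carried the motif often. It was found for all 14 of the mitoribosomal protein genes with other names and for 7 of 8 mitochondrial translation factors. It was also found for 8 of 10 mitoribosome assembly factors and for 14 of 18 genes listed as translational activators. Many of these activators are needed for the translation of single mitochondrial mRNAs, but the list also holds OXA1, MBA1 and MDM38, which act more widely. By contrast the motif was found for 6 of 37 nuclear genes of the respiratory chain and ATP synthase (16.2%) and for 6 of 137 cytosolic ribosomal protein genes (4.38%).

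**Figure D1:**
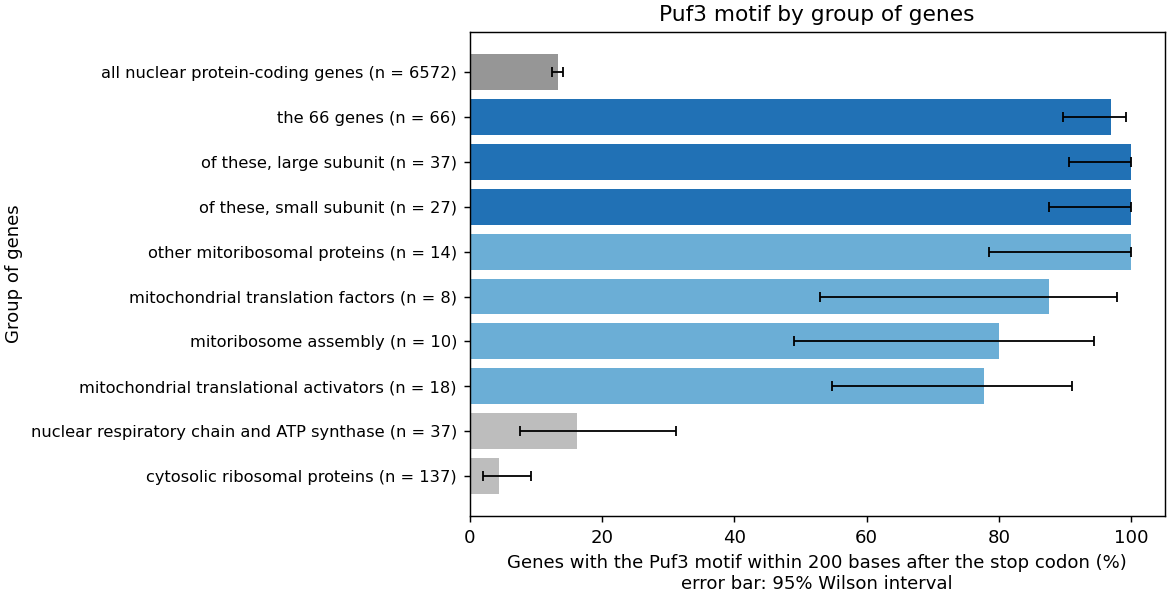
Share of genes with the Puf3 motif on the coding strand within 200 bases after the stop codon (x axis, percent) in each group of genes (y axis), with bars from 0 and 95% Wilson intervals. The 66 genes stand at 97.0%, both subunits at 100%, and all nuclear protein-coding genes at 13.3%.

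Levels of different genes were compared as RPFs per CDS length, scaled to a sum of 1000000 per library (TPM). Over the 8 libraries the 66 genes had a median level of 62.5 TPM, against 35.0 TPM for all genes tested, 291 TPM for the nuclear respiratory chain and ATP synthase and 776 TPM for cytosolic ribosomal proteins. Their levels spread less than those of all genes, as did those of both other groups. The 90th percentile was 4.05 times the 10th among the 66 genes, 3.65 times among cytosolic ribosomal proteins, 4.59 times among genes of the respiratory chain and ATP synthase and 31.2 times among all genes tested. The SD of log2 TPM was 0.88 among the 66 genes and 0.78 among the 64 without MRP8 and RSM22, compared with 0.82 and 0.91 in these other groups and 2.11 among all genes tested. Large and small subunit genes had similar medians, at 63.9 and 55.6 TPM.

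The 2 genes with no place in the mitoribosome stood at the ends of this order. MRP8 had the highest level, with a mean of 381 TPM and a range of 209 to 455 TPM over the libraries, and its lowest library lay above the mean of every other gene of the set. RSM22 had the lowest level, with a mean of 11.6 TPM and a range of 8.70 to 15.7 TPM. Among the subunit genes the highest means were those of MRPL39 (181 TPM), which encodes the homolog of bacterial L33, MRPL27 (180 TPM), MRPS12 (179 TPM), which encodes the homolog of the decoding centre protein S12, and RSM19 (175 TPM), the homolog of S19. Their ranges over the libraries overlapped, so these 4 cannot be put in order. The lowest were RSM28 (22.9 TPM), RSM23 (26.8 TPM), which encodes the homolog of human DAP3, MRPS35 (31.6 TPM) and MRPL40 (33.3 TPM), the homolog of L24.

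**Figure D2:**
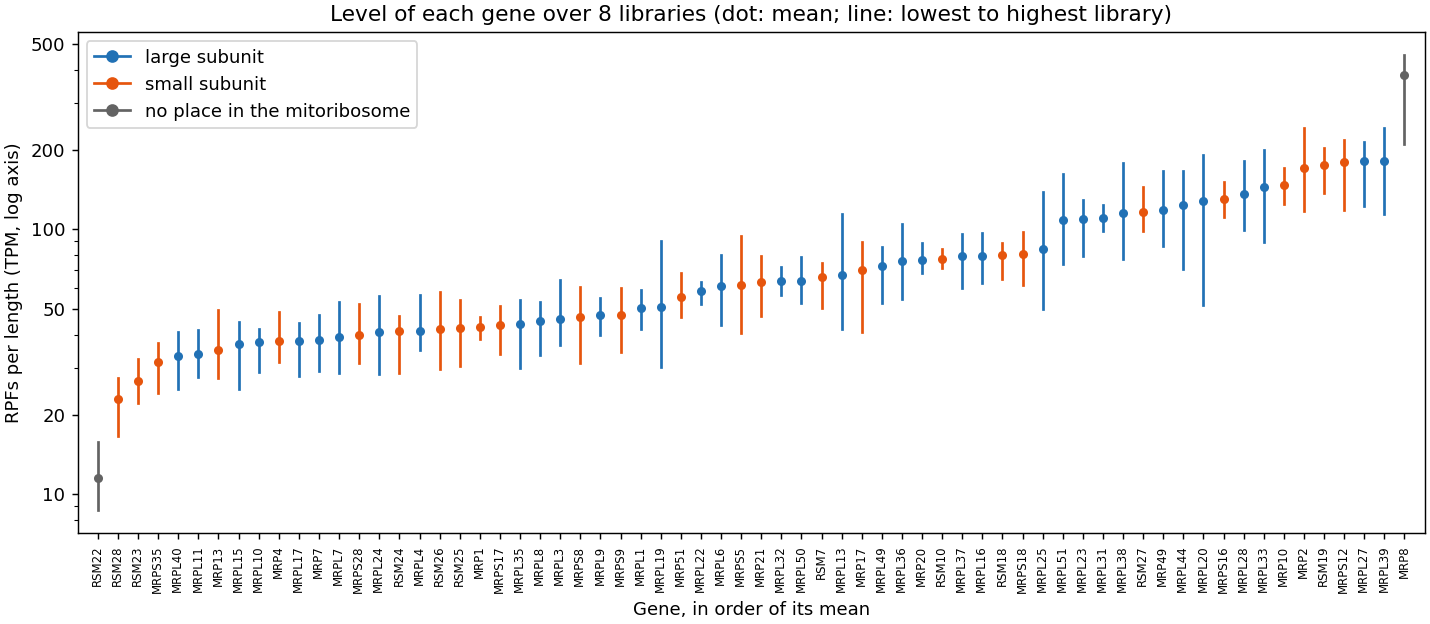
Level of each of the 66 genes in RPFs per CDS length (y axis, TPM, log axis), with genes in order of their mean (x axis); dots are means over 8 libraries, lines run from the lowest to the highest library, and colours mark the subunit. MRP8 and RSM22 lie at the 2 ends, at 381 and 11.6 TPM, and the 64 subunit genes between 22.9 and 181 TPM.

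Of all RPFs on CDS, the 66 genes held 0.441% and 0.474% in ODIRA_A, 0.428% and 0.380% in Trans, 0.390% and 0.393% in ComQuad, and 0.363% and 0.368% in ODIRA_B. Both ODIRA_A libraries were therefore above the other 6 and both ODIRA_B libraries below the other 6, while the Trans replicates lay on either side of ComQuad. Without MRP8 and RSM22 the shares were 0.392% and 0.358% in Trans and 0.351% and 0.356% in ComQuad. Both Trans libraries were then above both ComQuad libraries. These shares are given as a description, with no test. The ratio of RPFs on large subunit genes to those on small subunit genes was 1.31 to 1.42 in 7 libraries and 1.64 in Trans replicate 2, the library in which MRP8 was also lowest.

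Across the 4 strains, the strain means of the 66 genes mostly stayed close together. The highest strain mean was less than 1.5 times the lowest for 52 of the 66 genes. It was more than 2 times the lowest for 2, MRPL20 and MRPL13, both inside a CNV. The median ratio of highest to lowest strain mean was 1.34 for the 66 genes and 1.48 for all genes tested. Most genes tested thus also had a ratio under 1.5, and the share of all genes above 2 was not counted. In a joint test of the 4 strains (edgeR's quasi-likelihood F test, Benjamini-Hochberg adjusted over 5725 genes), 13 of the 66 genes passed an adjusted p of 0.05 (19.7%), compared with 43.5% of all genes tested. The median of the mean count per library was 404 for the 66 genes and 450 for all genes tested. Of the 13 genes, 11 encode large subunit proteins, of 37, and 2 small subunit proteins, of 27. The count depended on which library was present, as it did for all genes. It rose to 39 when Trans replicate 1 was left out, with 68.0% of all genes called, and to 26 when Trans replicate 2 was, with 55.0% of all genes called. It fell without any 1 library of ODIRA_A, ComQuad or ODIRA_B, and so did the share of all genes called.

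The first 2 genes by this test were those inside a CNV. MRPL20 (YKR085C, chromosome XI, 599094 to 599681, minus strand, R64-1-1) encodes a large subunit protein specific to mitochondria and lies inside the CNVs of 3 strains, with 2 copies in Trans, 3 in ODIRA_A, 3 in ODIRA_B and 1 in ComQuad. It had 90.2 and 82.0 CPM in Trans, 143 and 143 CPM in ODIRA_A, 38.7 and 40.6 CPM in ComQuad, and 149 and 136 CPM in ODIRA_B. The values rose in the order of the copy number, with no overlap between strains of unequal copy number. ODIRA_A was higher than ComQuad by 1.85 ± 0.12 on the log2 scale (standard error, adjusted p = 1.55e-06) and ODIRA_B by 1.85 ± 0.12 (adjusted p = 3.98e-06), beside a log2 copy ratio of 1.58. Trans was higher than ComQuad by 1.12 ± 0.12 (adjusted p = 6.80e-05), beside a copy ratio of 1.00. ODIRA_A and ODIRA_B, with 3 copies each, differed by 0.01 ± 0.12 (adjusted p = 0.976). Divided by copy number, the strain means were 39.6 CPM per copy in ComQuad, 43.1 in Trans, 47.5 in ODIRA_B and 47.7 in ODIRA_A.

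MRPL13 (YKR006C, chromosome XI, 450423 to 451217, minus strand) encodes a large subunit protein that is not essential for mitochondrial translation, and it lies inside the CNV of ODIRA_B only, at 3 copies. It had 136 and 120 CPM in ODIRA_B, above all other libraries. Trans had 56.4 and 69.5 CPM and ODIRA_A 55.6 and 63.2 CPM, with overlapping ranges, and ComQuad was lowest with 45.5 and 43.7 CPM. ODIRA_B was 2.88-fold higher than ComQuad (log2 difference 1.52 ± 0.15 in size, adjusted p = 3.46e-05), 2.16-fold higher than ODIRA_A (adjusted p = 0.000432) and 2.04-fold higher than Trans (adjusted p = 0.000992). Among the strains with 1 copy, ComQuad was lower than Trans by 0.50 ± 0.15 (adjusted p = 0.0256) and lower than ODIRA_A by 0.41 ± 0.15 (adjusted p = 0.0493). The first of these calls was lost without Trans replicate 2 or either ComQuad library and in a fit of only the libraries of these strains. The second was lost without any 1 library of ODIRA_A, ComQuad or ODIRA_B, with DESeq2, with RLE normalization and with the replicate block. Per copy, ODIRA_B had 42.8 CPM, beside 44.6 CPM in ComQuad, 59.4 CPM in ODIRA_A and 63.0 CPM in Trans.

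**Figure D3:**
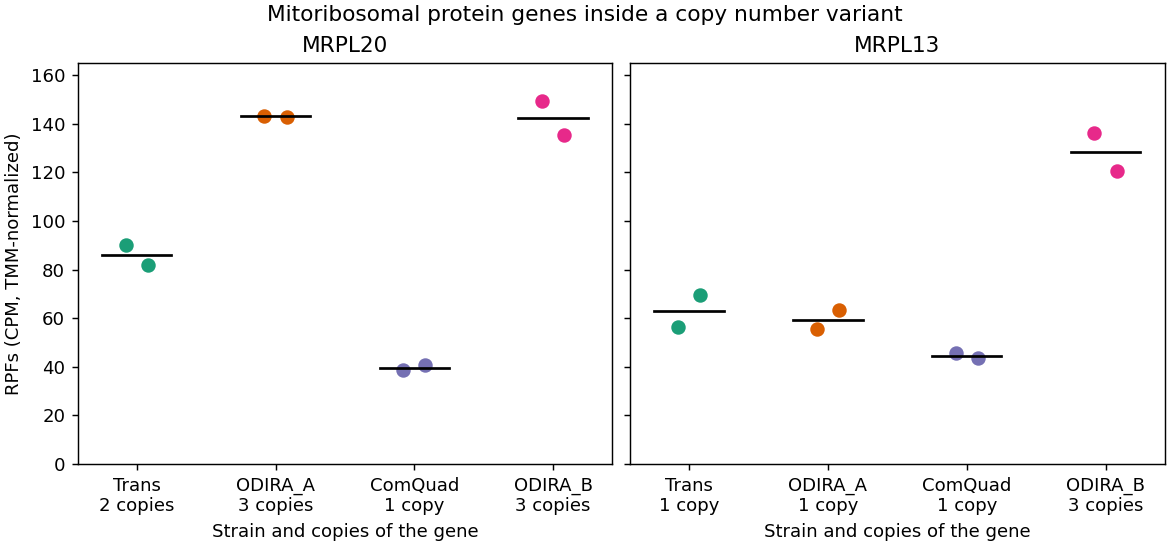
RPFs on MRPL20 and MRPL13 (y axis, CPM) in each strain, with the copies of the gene (x axis); dots are libraries and bars the mean of 2. MRPL20 rises from about 40 CPM at 1 copy to 143 CPM at 3 copies, and MRPL13 is highest in ODIRA_B, the strain with 3 copies, at 120 and 136 CPM.

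Outside the CNVs, 11 of 64 genes passed the joint test (17.2%, against 43.5% of all genes tested), and 12 of 66 genes had all 4 libraries of ComQuad and ODIRA_B below all 4 of Trans and ODIRA_A (18.2%, against 11.2% of all genes tested), whereas 0 had them above (against 11.3%). All 12 lie outside the CNVs. Both ODIRA_A libraries were above the other 6 for 14 genes (against 9.8% of all genes tested) and below them for 0 (against 10.9%). Both ODIRA_B libraries were below the other 6 for 11 genes (against 10.3%) and above them for 3 (against 12.6%). ComQuad lay below for 8 genes and above for 2 (each against 17.9%), and Trans above for 5 (against 6.03%) and below for 1 (against 5.03%). MRPL28, a large subunit gene specific to mitochondria, had 95.8 and 112 CPM in Trans and 96.3 and 84.0 CPM in ODIRA_A, but 64.8 and 69.5 CPM in ComQuad and 69.7 and 61.8 CPM in ODIRA_B (joint adjusted p = 0.00620). RSM26, which encodes a small subunit protein related to superoxide dismutases, had 51.6 and 47.6 CPM in Trans and 55.5 and 59.2 CPM in ODIRA_A, against 37.4 and 42.9 CPM in ComQuad and 35.5 and 34.4 CPM in ODIRA_B (joint adjusted p = 0.00759). In both genes the strains of generation 150 and 250 did not overlap.

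The same order was seen for 4 more genes past the joint threshold, MRPL6, MRPL38, MRPL19 and MRPL11. MRPL6, the homolog of L6, had 59.0 and 59.7 CPM in Trans and at least 65.3 CPM in ODIRA_A, and 39.1 to 49.1 CPM in the other 4 libraries (joint adjusted p = 0.0135). MRPL38, the homolog of the subunit interface protein L14, had 64.5 to 94.7 CPM in Trans and ODIRA_A and 48.0 to 58.3 CPM in ComQuad and ODIRA_B (adjusted p = 0.0148). MRPL19 and MRPL11, the homologs of L11 and L10 at the base of the ribosomal stalk, were both low in ComQuad and ODIRA_B. MRPL19 had 35.4 and 60.2 CPM in Trans, 35.3 and 36.6 CPM in ODIRA_A, 24.2 and 24.0 CPM in ComQuad, and 29.7 and 20.1 CPM in ODIRA_B (adjusted p = 0.0183), so the 2 Trans replicates were far apart. Its CDS shares 113 bases on the same strand with the reading frame YNL184C, and RPFs there count for both. MRPL11 had 37.1 to 43.3 CPM in Trans and ODIRA_A and 26.3 to 31.9 CPM in ComQuad and ODIRA_B (adjusted p = 0.0230).

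Other patterns were found for the other 5. MRP2, the homolog of S14, was the only gene of the 13 whose highest strain was ComQuad apart from MRPL35, with 106 and 90.6 CPM there, 82.8 and 71.6 CPM in Trans, 77.4 and 88.4 CPM in ODIRA_A, and 63.6 and 56.7 CPM in ODIRA_B (adjusted p = 0.0162). Both ComQuad libraries were above and both ODIRA_B libraries below all others. MRPL35 was lowest in ODIRA_B, with 49.7 and 53.1 CPM against 64.8 to 78.1 CPM elsewhere (adjusted p = 0.0432). MRP49, a large subunit protein not essential for mitochondrial translation, and MRPL51 were highest in ODIRA_A, with 80.5 and 87.4 CPM and with 80.5 and 87.2 CPM (adjusted p = 0.0260 and 0.0371). MRPL25 was highest in Trans, where its replicates had 53.8 and 91.7 CPM, and lowest in ODIRA_B, with 35.5 and 40.2 CPM (adjusted p = 0.0362).

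Which of these calls held when a library was left out differed between genes. MRPL20, MRPL13, MRPL28 and RSM26 passed the joint test in all 15 alternatives tried. MRPL6 failed without ComQuad replicate 1 or 2, as did MRPL19. MRPL38 failed without ODIRA_A replicate 2, ComQuad replicate 1 or ODIRA_B replicate 1, MRP2 without ComQuad replicate 1 or either ODIRA_B library, and MRPL11 without either ComQuad library or ODIRA_B replicate 2. MRP49, MRPL25, MRPL51 and MRPL35 each failed without any 1 of the 6 libraries of ODIRA_A, ComQuad and ODIRA_B, and MRPL35 also failed with DESeq2.

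At the other end, 5 genes had the largest p in the joint test. MRP10, which encodes a small subunit protein with twin CX9C motifs that is oxidised during import, had strain means within 1.07-fold of each other and 50.4 to 66.3 CPM over the libraries (adjusted p = 0.953). MRPL10, the homolog of L15, and MRP20, the homolog of the tunnel exit protein L23, had strain means within 1.09-fold (adjusted p = 0.887 and 0.766). MRP20 ranged from 79.0 to 91.4 CPM. MRPS17, the homolog of S17, ranged from 34.0 to 51.9 CPM and MRPL31 from 49.7 to 68.9 CPM (adjusted p = 0.764 and 0.717). These p-values do not show that the strains were equal. Of the 2 genes without a place in the mitoribosome, RSM22 had 30.7 to 37.9 CPM in Trans and ODIRA_A and 22.9 to 27.7 CPM in ComQuad and ODIRA_B (adjusted p = 0.0611). MRP8 had 194 CPM in Trans replicate 2 and 330 to 388 CPM in the other 7 libraries (adjusted p = 0.131).

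**Figure D4:**
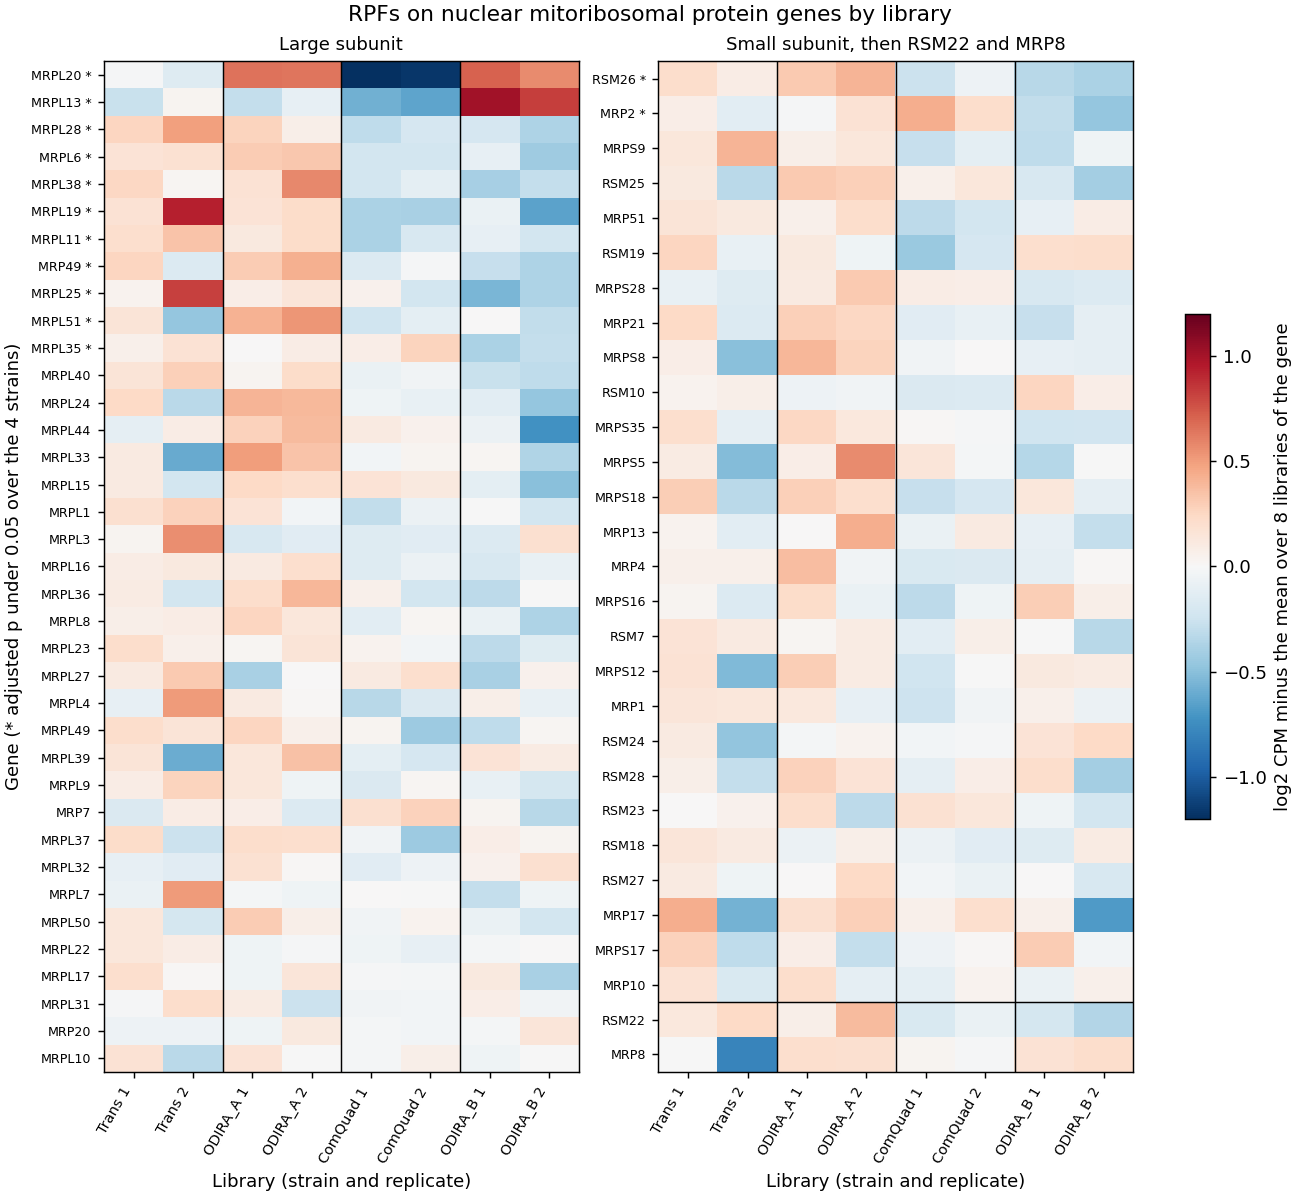
RPFs on each of the 66 genes (rows, ordered by joint p within each subunit) in the 8 libraries (columns), as log2 CPM minus the mean of the gene over the libraries; stars mark the 13 genes with a joint adjusted p under 0.05. MRPL20 and MRPL13 show the widest range, and most of the other starred genes are higher in Trans and ODIRA_A than in ComQuad and ODIRA_B.

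Between pairs of strains, the 66 genes as a group were highest in ODIRA_A. The median log2 difference of the 66 genes was 0.25 for ODIRA_A against ODIRA_B and 0.23 for ODIRA_A against ComQuad, and 54 and 57 of the 66 genes were higher in ODIRA_A. It was 0.16 for Trans against ODIRA_B, 0.13 for Trans against ComQuad, 0.04 for ComQuad against ODIRA_B and -0.10 for Trans against ODIRA_A. The median over all genes tested was between 0.00 and 0.01 in each pair. The 6 comparisons share strains, so they are not independent of each other. For Trans against ComQuad the median rested on the library chosen, at 0.01 if Trans replicate 1 was left out and 0.21 if Trans replicate 2 was, and for Trans against ODIRA_A it was -0.02 with only the first Trans library and -0.16 with only the second. With only the first Trans library the median for Trans against ODIRA_B was 0.25. For ComQuad against ODIRA_B the median was 0.08 without ComQuad replicate 1 or ODIRA_B replicate 1, 0.01 without ComQuad replicate 2 and 0.02 without ODIRA_B replicate 2. Small and large subunit genes had medians of 0.22 and 0.29 for ODIRA_A against ODIRA_B and of 0.20 and 0.25 for ODIRA_A against ComQuad. For Trans against ODIRA_A the median was -0.13 for the small subunit, with 19 of 27 genes lower in Trans, and 0.00 for the large subunit, with 19 of 37 lower.

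Few single genes passed the test in these pairs, and 21 of the 66 did so in any pair (31.8%, against 54% of all genes). In Trans against ODIRA_A 1 of the 66 genes passed (1.52%, against 3.65% of all genes, 2.64% higher in Trans and 1.01% higher in ODIRA_A), MRPL20, which was lower in Trans by 0.73 ± 0.12 (adjusted p = 0.00778). Without ODIRA_A replicate 2 there was none, and without Trans replicate 1 there were 21 (31.8%, against 30.4% of all genes). In ODIRA_A against ComQuad 10 genes passed, all of them higher in ODIRA_A (15.2%, against 33.6% of all genes in either direction, 17.2% in this one and 16.4% in the other). Besides MRPL20, the largest difference was that of MRPL51, at 0.65 ± 0.19 (adjusted p = 0.0223), a call lost without any 1 of the 4 libraries compared. In ODIRA_A against ODIRA_B 11 genes passed (16.7%, against 22.4%), of which 10 were higher in ODIRA_A (15.2%, against 9.99% of all genes). MRPL38, at 0.74 ± 0.17 (adjusted p = 0.00991), and RSM26, at 0.71 ± 0.14 (adjusted p = 0.00519), led these, and MRPL13 alone was higher in ODIRA_B (against 12.4%). The call of RSM26 was lost without ODIRA_B replicate 2, and that of MRPL38 without ODIRA_A replicate 2 or either ODIRA_B library. Depending on the library left out, the counts ran from 1 to 24 for ODIRA_A against ComQuad and from 1 to 26 for ODIRA_A against ODIRA_B. Each was highest without a Trans library, at 24 (36.4%, against 46.2% of all genes) and 26 (39.4%, against 34.6%), and the same counts were found without the other Trans library. For ODIRA_A against ODIRA_B the share of the 66 genes was thus above that of all genes without a Trans library and below it with both. The counts were lowest without ComQuad replicate 1 in the first and without ODIRA_B replicate 2 in the second. Both counts also fell without either ODIRA_A library. The first fell without ComQuad replicate 2, and the second without either ComQuad library or ODIRA_B replicate 1. In each of these fits the share of all genes called fell as well.

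In Trans against ComQuad 9 genes passed, all higher in Trans (13.6%, against 30.7% of all genes in either direction, 16.3% in this one and 14.5% in the other). After MRPL20 the largest difference was that of MRPL19, at 0.98 ± 0.24 (adjusted p = 0.0105), a call lost without either ComQuad library. In Trans against ODIRA_B 8 genes passed (12.1%, against 18.7%), with 6 higher in Trans (against 8.63%), led by MRPL25 and MRPL19, each at 0.94 (standard errors 0.23 and 0.26, adjusted p = 0.0204 and 0.0297), and with MRPL13 and MRPL20 higher in ODIRA_B (against 10.1%). MRPL19 was at 0.51 without Trans replicate 2 and missed the threshold without any 1 library other than Trans replicate 1, and MRPL25 missed it without either ODIRA_B library. Without Trans replicate 1 the counts were 23 against ComQuad (34.8%, against 43.7% of all genes) and 18 against ODIRA_B (27.3%, against 32.8%). Against ComQuad the count fell without either ComQuad library, and against ODIRA_B it fell without any 1 library of ComQuad or ODIRA_B. The share of all genes called fell in each of these fits.

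In ComQuad against ODIRA_B 5 genes passed (7.58%, against 24.6%), with MRP2, at 0.71 ± 0.15 (adjusted p = 0.00557), and MRPL35, at 0.51 ± 0.14 (adjusted p = 0.0201), higher in ComQuad (against 9.9% of all genes), and with MRPL20, MRPL13 and RSM19 higher in ODIRA_B (against 14.7%). RSM19, the homolog of S19, had 47.8 and 56.7 CPM in ComQuad and 74.7 and 75.5 CPM in ODIRA_B (adjusted p = 0.0335). It did not pass the joint test (joint adjusted p = 0.0726), and its call in this pair was lost without either ComQuad library or ODIRA_B replicate 2. MRP2 missed the threshold without ComQuad replicate 1 or ODIRA_B replicate 2, and MRPL35 without any 1 of the 4 libraries compared. The count rose without either Trans library and fell without any 1 library of ComQuad or ODIRA_B. The share of all genes called moved the same way. Without the 2 genes in a CNV, 3 genes remained in this comparison.

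**Figure D5:**
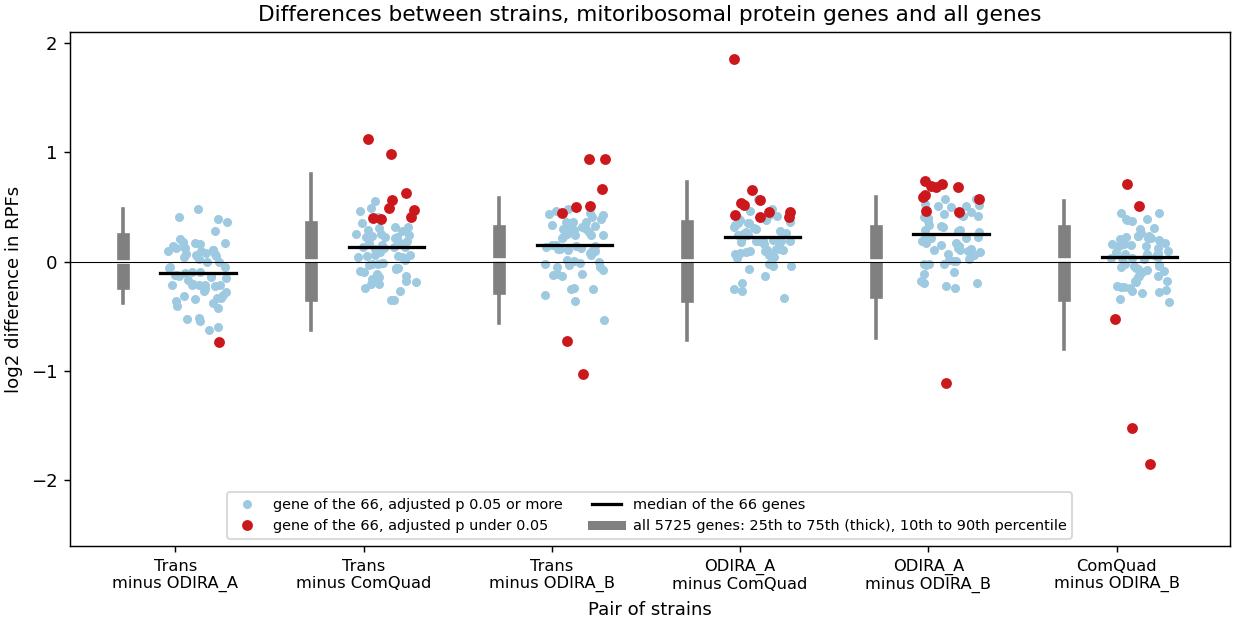
Log2 difference in RPFs (y axis) between each pair of strains (x axis), first strain minus second, for the 66 genes (dots, red where the adjusted p was under 0.05, with their median as a bar) and all 5725 genes tested (grey, percentiles). The median of the 66 genes is highest for ODIRA_A minus ODIRA_B, at 0.25, and the dots beyond 1 in size include MRPL20 and MRPL13.

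Cytosolic ribosomal proteins had medians of 0.24 for ODIRA_A against ODIRA_B, 0.35 for ODIRA_A against ComQuad and -0.11 for Trans against ODIRA_A, and 58 of 137 passed the joint test (42.3%). Nuclear genes of the respiratory chain and ATP synthase, which work with the products of the mitoribosome, had medians of -0.10, 0.12 and -0.04 in the same comparisons, and 16 of 37 passed (43.2%). In ODIRA_A against ODIRA_B the 66 genes and the respiratory chain genes thus had medians of opposite sign, a difference that was not tested. Genes outside the set that carry the Puf3 motif had medians of 0.08 for ODIRA_A against ODIRA_B and 0.08 for ODIRA_A against ComQuad, and 291 of 767 passed the joint test (37.9%). In these counts the shares of cytosolic ribosomal protein and respiratory chain genes were close to that of all genes tested (43.5%), and that of the other genes with the motif was below it. PUF3 itself had 134 and 217 CPM in Trans and 129 to 156 CPM in the other strains (joint adjusted p = 0.302).

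Among 50 other genes of mitochondrial translation, 13 passed the joint test, against 43.5% of all genes tested. Of the mitoribosomal proteins with other names 1 of 14 was called, MNP1, the homolog of the stalk protein L7/L12. Of the mitochondrial translation factors 5 of 8 were called, of the assembly factors 3 of 10 and of the translational activators 4 of 18. MAM33, a matrix protein of mitoribosome assembly, had 99.7 and 128 CPM in ODIRA_A, 85.1 and 73.1 CPM in Trans, 57.2 and 64.2 CPM in ComQuad, and 53.6 and 52.5 CPM in ODIRA_B (joint adjusted p = 0.000835). RRF1, the ribosome recycling factor, had the same order of strain means, with 44.3 and 50.4 CPM in ODIRA_A and 27.8 and 26.3 CPM in ODIRA_B (adjusted p = 0.00760).

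TUF1, the mitochondrial elongation factor Tu, MSS51, an activator of COX1 mRNA translation, and PET54, an activator of COX3 mRNA translation, were lowest in ComQuad. TUF1 had 133 and 144 CPM in ComQuad and 214 to 376 CPM in the other 6 libraries (adjusted p = 0.00461). MSS51 had 77.8 and 78.7 CPM in ComQuad and 109 to 156 CPM elsewhere (adjusted p = 0.00119), and PET54 had 20.3 and 21.8 CPM in ComQuad and 29.2 to 46.4 CPM elsewhere (adjusted p = 0.0115). For these 3 genes both ComQuad libraries lay below all others. The count of 13 rose without either Trans library and fell without either ComQuad library or ODIRA_B replicate 1. In these fits the share of all genes called moved the same way. The calls of MAM33, MSS51 and RRF1 were made in all 15 alternatives, and TUF1 and PET54 missed the threshold in 1 and 2 of them.

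VAR1, the mitochondrial gene for a small subunit protein, had 26 and 22 RPFs in ODIRA_B and 0 to 5 RPFs in each of the other 6 libraries. It reached the minimum of 10 RPFs only in ODIRA_B, the strain where it was high, so no p-value is given for it. Over all mitochondrially encoded genes the counts were 1317 and 1618 RPFs in ODIRA_B and 18 to 53 elsewhere, although the ODIRA_B libraries were the smallest. In the strain with most counts on mitochondrial genes, RPFs on the 66 nuclear genes held the smallest share of the library. Whether the counts on mitochondrial genes are footprints of mitoribosomes was not tested, nor was a relation between these counts and that share.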

How the data were processed

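RPF libraries of 4 evolved yeast strains, 2 of each, were analysed. The authors selected fragments of 25 to 32 nt, removed rRNA, tRNA and snRNA reads, aligned the rest with STAR 2.7.6a and counted reads on the same strand as each annotated feature (R64-1-1) with bedtools 2.29.2. Cutadapt is named in the submitters' processing notes. The deposited values are whole-number counts, not normalized. The treatment of duplicates and of reads matching several places is not given in the sources used here.

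A gene's count is the sum over its CDS features (6600 protein-coding genes). Strains were compared with the quasi-likelihood F test of edgeR 4.0.16 (R 4.3.3, TMM normalization, robust dispersions) in one fit of all 8 libraries, with 4 residual degrees of freedom and a common biological coefficient of variation of 0.123, for 5725 genes that reached 10 RPFs in 2 or more libraries. Benjamini-Hochberg adjustment ran over these genes, with a threshold of 0.05. A standard error is the size of the log2 difference over the square root of F. No set of genes was tested. Each strain was grown in 2 chemostats per the study's methods, which call the replicates biological. The step was tested on simulated data.

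The genes, the lists and the alternatives were chosen with earlier results of these data known. Named with values were the 10 genes with the smallest joint p, the 2 largest rises and falls of each pair, the 5 highest and 5 lowest levels, the 5 largest joint p, genes in a CNV, MRP8, RSM22, VAR1, PUF3 and the 5 pathway genes with the smallest joint p. MNP1, the other genes past the joint threshold and RSM19 in its pair were named after their values were seen. Copy numbers are those of the study's genotypes. The 17 chromosomes have the same lengths in the files and in the RefSeq R64 genome, from which sequences were read. Alternatives were another tool (DESeq2 1.42.0), RLE factors, TMM over genes not in a CNV, 2 other filters, gene features in place of CDS, a block for the replicate number, a fit of the 4 libraries of a pair alone, each library left out, and, added later, leaving out MRPL13 and MRPL20.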

Additional observations from a re-analysis of the deposited data

How the results depend on the processing

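The share of the 66 genes called in the joint test was below the share of all genes in each of the 15 alternatives, at 6.06% to 59.1% against 24.9% to 68.0%. Leaving out 1 library gave 4 to 39 genes in the joint test, 0 to 21 for Trans against ODIRA_A, 1 to 23 for Trans against ComQuad, 2 to 18 for Trans against ODIRA_B, 1 to 24 for ODIRA_A against ComQuad, 1 to 26 for ODIRA_A against ODIRA_B and 2 to 10 for ComQuad against ODIRA_B, and 4 to 32 of the 50 pathway genes. The share of all genes called also changed with the library left out. The cause was not tested. The medians ran from -0.158 to -0.0225, 0.0136 to 0.207, 0.11 to 0.25, 0.19 to 0.25, 0.24 to 0.32 and 0.01 to 0.08 in the same order of pairs, and none changed sign. A fit of only the 4 libraries compared, with fewer samples, gave 0, 4, 3, 22, 18 and 17 genes in that order. These were 0%, 6.06%, 4.55%, 33.3%, 27.3% and 25.8% of the 66 genes. The shares of all genes were 0.865%, 20.8%, 9.74%, 44.2%, 29.6% and 46.8%. In these fits the calls of MRPL20 for Trans against ODIRA_A and of MRPL25 and MRPL19 for Trans against ODIRA_B were lost.

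DESeq2 gave 6 genes for ODIRA_A against ComQuad, and 14 in the joint test, of which 12 were shared with edgeR. Without MRPL13 and MRPL20, an alternative chosen after seeing the data, 0 genes passed for Trans against ODIRA_A and 3 for ComQuad against ODIRA_B, and the median for ODIRA_A against ODIRA_B was 0.28. The replicate numbers were not taken to pair the libraries: the correlation of replicate differences over 4279 genes was above 0.1 in 3 of 6 pairs of strains and below 0 in the 3 with ComQuad (-0.26 to 0.24). With the replicate block 17 genes passed the joint test, including the 13, and 15 pathway genes.

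Without MRP8 and RSM22 the RPF shares of the Trans libraries were 0.392% and 0.358%, above both ComQuad libraries. The mean RPF share without MRP8 and RSM22 was lower by construction, at 0.415% (ODIRA_A), 0.354% (ComQuad) and 0.327% (ODIRA_B). Relative to genes outside the CNVs and the mitochondrial genome it was 0.397% in ComQuad and 0.357% in ODIRA_B, and on gene features 0.387% and 0.355%. The Puf3 motif was found for 89.4% of the 66 genes within 100 bases and 97.0% within 300 bases. Among all nuclear protein-coding genes the shares were 9.46% and 15.3%. Without MRP8 and RSM22 it was found for 92.2% of the set within 100 bases and 100% within 300 bases. Among other alternatives for counts and medians, 60 of 69 counts stayed within 1.5 times their value and 59 of 60 medians moved by less than the SD of the library medians combined over both strains (0.0185 to 0.0581). Counting error on single genes was largest in ODIRA_B, the strain with the fewest RPFs. Replicates differed most in Trans, with an SD of log2 ratios of 0.37, against 0.18 in ODIRA_B.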
